A study of Rattus norvegicus with 39 samples.

Results

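Transcripts of the amyloid precursor family and of genes linked to Alzheimer's disease were followed in hippocampal CA1 tissue of adrenal-intact rats and of adrenalectomized rats given corticosterone at different doses. The genes were App, Aplp2, Psen2, Bace1, Apoe and Clu, and their members were all probe sets of the deposited value table that carry 1 of these 6 symbols alone. This gave 11 of the 8799 probe sets, for 5 of the 6 genes: 2 for App, 4 for Aplp2, 2 for Psen2, 2 for Apoe and 1 for Clu. No probe set carried the symbol Bace1 alone, and Bace1 was not analysed here. All 11 probe sets passed the filter on low values, a mean log2 value of at least 6.28.

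The rats were males of the Fischer 344 strain (spelled Fisher 344 in the sample labels), operated at 14 to 15 months and 18 months old at the end, with 1 array per animal. In Sham (n = 10) the adrenals were left in place and the pellet was inert. The other groups were adrenalectomized (ADX) and carried a slow-release corticosterone pellet for 3 months, of 25 mg in LowCort (n = 10) and of 200 mg in IntermediateCort (n = 9). LowInj rats (n = 10) were adrenalectomized too and had the 25 mg pellet plus daily intraperitoneal injections of 5 mg on 4 days at the end. Animals with the 25 mg pellet stayed on saline with sucrose as drinking fluid, so fluid and dose differ together. The surgery differs together with the source of the hormone, because every animal with a hormone pellet had lost its adrenals. One adrenalectomized animal was removed for declining health per the labels.

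As background, App encodes the amyloid precursor protein, a membrane protein that is cut by alpha- or beta-secretase and then by gamma-secretase. Cutting by beta-secretase, which Bace1 encodes, and gamma-secretase releases amyloid-beta, the peptide of the plaques of Alzheimer's disease. Aplp2 encodes a relative of the precursor that lacks the amyloid-beta sequence, and Psen2 encodes presenilin 2, a catalytic subunit of gamma-secretase. Apoe and Clu encode apolipoprotein E and clusterin (apolipoprotein J), lipid carriers that in brain are made mostly by astrocytes and that bind amyloid-beta. Common variants of both human genes are linked to the risk of Alzheimer's disease. Corticosterone is the main glucocorticoid of the rat and acts on gene expression through receptors that are abundant in the hippocampus.

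Array medians lay between 7.27 and 7.33, and arrays correlated with each other at 0.974 to 0.998. Of 9 tested genes on a list of glucocorticoid-induced targets, 4 fell in LowCort against Sham and 0 rose, each gene counted by its probe set with the highest mean. Over all tested probe sets 1.68% were called in that comparison. Sult1a1, a sulfotransferase of that list, was lower in LowCort than in Sham (log2 difference -0.98, SE 0.12, adjusted p = 3.33e-07). In LowInj against LowCort 1 of the 9 rose, Sult1a1 (1.01, SE 0.12, adjusted p = 3.18e-07), and 0 fell. Sgk1, also of the list, did not rise there by a call (0.12, SE 0.17, adjusted p = 0.883). It stayed below Sham in LowInj (-1.38, SE 0.17, adjusted p = 6.78e-06). Of 11 genes on a list of CA1 pyramidal neurons, 5 were tested, so the check of the dissected region against its markers was thin. The tissue was a mixture of cells, and fewer cells of a type and less RNA per cell cannot be told apart.

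No member was called between any groups by limma. Of the 11 probe sets, 0 were called at an adjusted p under 0.05 in LowCort against Sham, where 1.68% of the 6118 tested probe sets were called. The count was also 0 of 11 in IntermediateCort against LowCort (2.14% of all tested called), LowInj against LowCort (0.343%), LowInj against IntermediateCort (0.196%), LowInj against Sham (0.229%) and IntermediateCort against Sham (0.0163%). The F test over the 4 groups likewise called 0 of 11, against 2.27% of all tested probe sets. With 11 members, shares of this size leave little room for a call, so the counts do not set the members apart from the array as a whole. At an unadjusted p under 0.05, 3 of the 66 member differences passed, 1 in each comparison of LowInj. Over all tested probe sets the unadjusted share was 7.37% in LowInj against LowCort, 11.4% against IntermediateCort and 5.95% against Sham. It was 13.6% in LowCort against Sham, 11.9% in IntermediateCort against LowCort, 4.22% in IntermediateCort against Sham and 11.8% in the F test, where 0 of 11 members passed.

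None of the differences was called, and the largest was 1.25-fold. On the log2 scale they ran from -0.32 to 0.17. With signs dropped, the member median was 0.13 in LowInj against Sham, above the 0.05 over all tested probe sets. It was also above in LowInj against IntermediateCort (0.10 against 0.06) and IntermediateCort against LowCort (0.08 against 0.06). The member median was below in LowCort against Sham (0.05 against 0.06), LowInj against LowCort (0.04 against 0.06) and IntermediateCort against Sham (0.04 against 0.05). The 95% intervals of the differences stayed between -0.64 and 0.56. With signs kept, the median over the 11 members was -0.03 in LowCort against Sham, against -0.01 over all tested probe sets. In LowInj against Sham it was -0.13, against 0.00 over all, and 8 of the 11 members were lower in LowInj. The 8 include the 2 probe sets of App and the 4 of Aplp2, several of which moved together over the arrays. They are therefore not 8 separate observations. With the 3' to 5' covariates described below, App X07648cds_at was at -0.06 and Aplp2 X77934cds_at at 0.04 in LowInj against Sham. To be called in LowCort against Sham, a member would have had to differ by 0.16 at least for the tightest probe set (Apoe X04979_at) and by 0.68 for the most variable (Aplp2 X77934cds_at). In LowInj against IntermediateCort these values were 0.20 and 0.85, and in IntermediateCort against Sham they were 0.30 and 1.28. They are cuts on the estimated difference, so a true difference of that size could still be missed. A miss of the threshold therefore does not show equal levels.

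**Figure D1:**
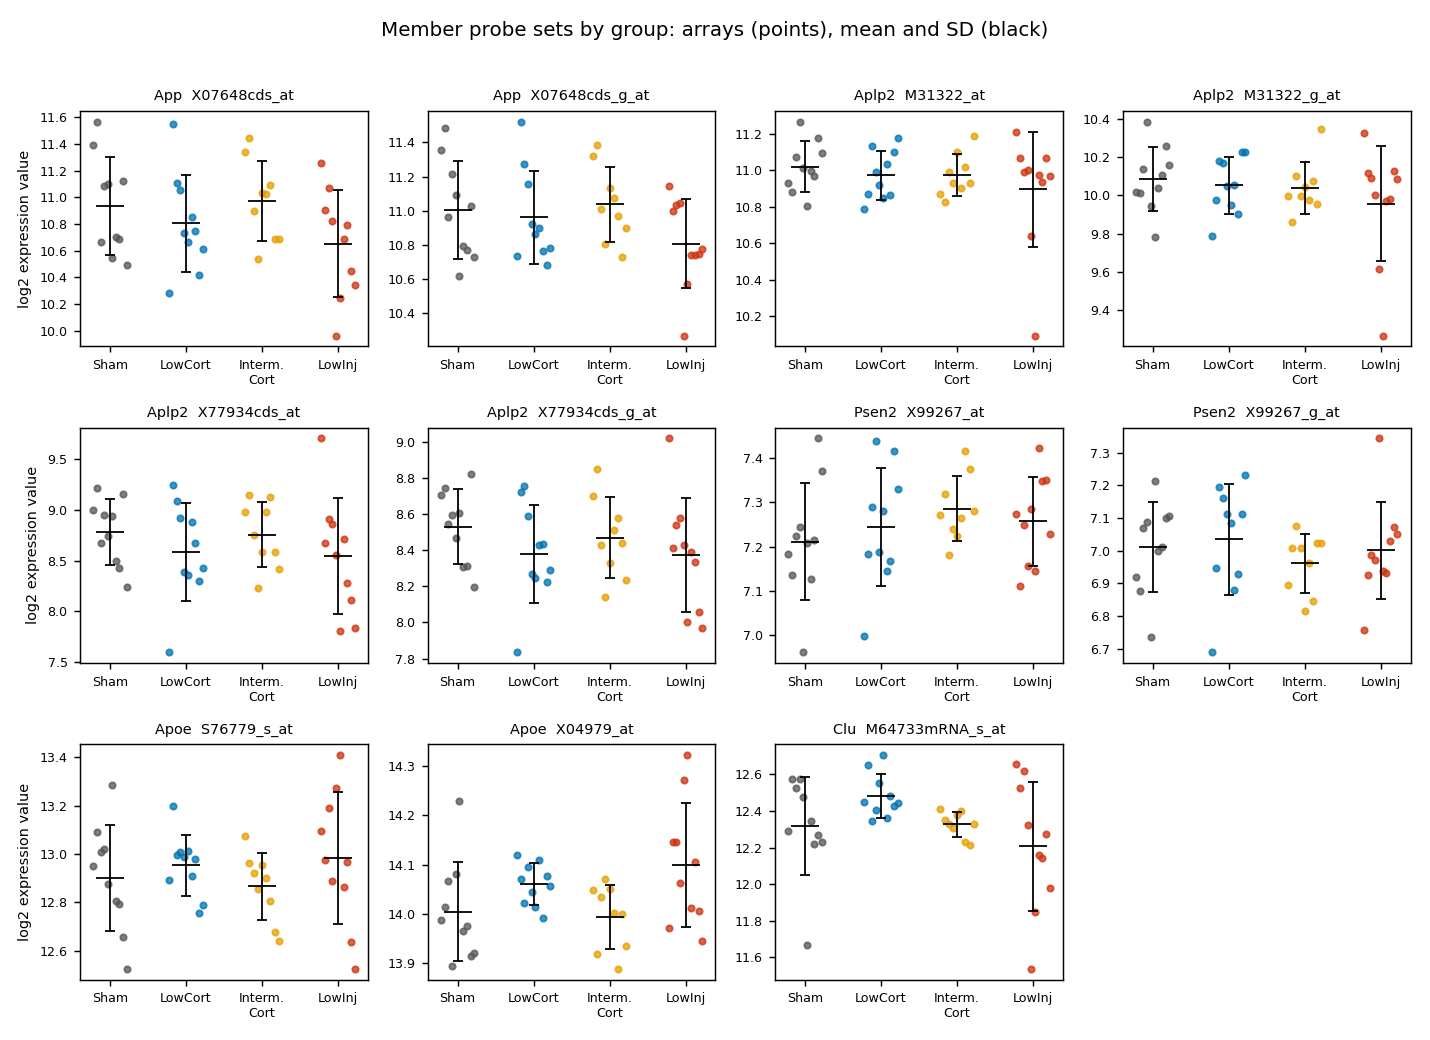
Deposited log2 values of the 11 member probe sets in Sham, LowCort, IntermediateCort and LowInj, with 1 point per array and the group mean and SD in black. Each panel has its own axis; the groups overlap in every panel, and a LowInj array has the lowest value in 4 of the 6 panels of App and Aplp2.

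App, the precursor itself, had its lowest group mean in LowInj in both probe sets. In X07648cds_at the arrays of Sham had a lowest log2 value of 10.49, a median of 10.90 and a highest value of 11.57, and those of LowCort 10.28, 10.74 and 11.55. IntermediateCort arrays had 10.54, 11.02 and 11.45 in the same order, and LowInj arrays 9.96, 10.74 and 11.26. The groups overlapped over most of their range, and the order of the means was IntermediateCort (10.97), Sham (10.94), LowCort (10.80) and LowInj (10.65), with no neighbours that differed beyond their spread. LowInj was lower than IntermediateCort by a log2 difference of -0.32 (SE 0.16, 95% interval -0.64 to 0.00, unadjusted p = 0.0518, adjusted p = 0.436), and 2 of 10 LowInj arrays lay above the IntermediateCort mean. The second probe set of App, X07648cds_g_at, gave the same order of means with a log2 difference of -0.23 (SE 0.12, adjusted p = 0.439). The probe sets followed each other over the 39 arrays (Pearson's correlation r = 0.942 and Spearman's rank correlation rho = 0.897, each with a permutation p of 1e-05, the smallest the permutations can give).

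Aplp2, the relative of the precursor, was read by 2 pairs of probe sets. The pair M31322_at and M31322_g_at had a correlation of 0.954 over the 39 arrays, and the pair X77934cds_at and X77934cds_g_at 0.969. Between the pairs r was 0.27 to 0.34 (permutation p between 0.0385 and 0.0986), with Spearman's rho of 0.06 to 0.10. The pairs thus carry the same symbol but did not rank the arrays alike. In M31322_at the LowInj arrays had a lowest log2 value of 10.09, a median of 10.98 and a highest value of 11.21, with a single array far below the rest, while Sham arrays lay between 10.80 and 11.27, LowCort arrays between 10.79 and 11.17 and IntermediateCort arrays between 10.83 and 11.19. In X77934cds_at the LowInj values were 7.80, 8.61 and 9.71 in the same order, and the spread within the group (SD 0.57) was wider than in Sham (SD 0.32). All 4 probe sets had their lowest mean in LowInj, though in X77934cds_g_at it was nearly that of LowCort (8.37 and 8.38). The largest difference was that of X77934cds_at in LowInj against Sham (log2 difference -0.24, SE 0.19, 95% interval -0.62 to 0.14, adjusted p = 0.932). The X77934cds_at probe set followed App X07648cds_at closely (r = 0.806 and rho = 0.864, each with a permutation p of 1e-05), and for M31322_at the relation was weak (r = 0.299, rho = 0.148, permutation p of r = 0.0639).

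Psen2, the gamma-secretase subunit, varied little between groups. In X99267_at the lowest, median and highest log2 values were 6.96, 7.21 and 7.44 in Sham, 7.00, 7.23 and 7.44 in LowCort, 7.18, 7.27 and 7.42 in IntermediateCort, and 7.11, 7.26 and 7.42 in LowInj. The group means spanned 7.21 to 7.29, less than the SD of 0.13 within Sham. The largest difference was IntermediateCort over Sham in X99267_at (log2 difference 0.07, SE 0.05, 95% interval -0.04 to 0.18, adjusted p = 0.998). In X99267_g_at IntermediateCort had the lowest mean of the groups (6.96) instead of the highest. The 2 probe sets were related over all arrays (r = 0.487, rho = 0.488, permutation p = 0.00184 and 0.0019), but r was 0.290 without the 2 farthest arrays, and by group it was 0.744 for Sham, 0.853 for LowCort, -0.245 for IntermediateCort and 0.169 for LowInj.

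Apoe, the lipid carrier, had its highest means in LowInj and LowCort, with no difference called. In X04979_at the highest array reached a log2 value of 14.32, close to the top of the whole table at 14.37, and whether the probe set was near saturation was not tested. Its lowest, median and highest values were 13.89, 13.98 and 14.23 in Sham, 13.99, 14.06 and 14.12 in LowCort, 13.89, 14.00 and 14.07 in IntermediateCort, and 13.95, 14.08 and 14.32 in LowInj. The LowInj arrays were spread most widely and included the highest arrays, while the LowCort arrays lay close together. LowInj was above IntermediateCort by 0.10 (SE 0.05, 95% interval 0.01 to 0.20, unadjusted p = 0.0252, adjusted p = 0.362), and 8 of 10 LowInj arrays exceeded the IntermediateCort mean. LowInj was above Sham by 0.09 (SE 0.04, unadjusted p = 0.0384, adjusted p = 0.820). After quantile normalization of the deposited values these log2 differences were 0.02 and 0.00. That method gives the top ranks nearly the same value on every array, so these values cannot decide on a probe set this near the top. In S76779_s_at the medians were 12.91 for Sham, 12.98 for LowCort, 12.90 for IntermediateCort and 12.97 for LowInj. There too the means of LowInj (12.98) and LowCort (12.95) stood above those of Sham (12.90) and IntermediateCort (12.87), with full overlap and no difference called.

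Clu, the other lipid carrier, had the member difference with the smallest unadjusted p. Its lowest, median and highest log2 values were 11.67, 12.32 and 12.58 in Sham, 12.35, 12.45 and 12.70 in LowCort, 12.22, 12.33 and 12.41 in IntermediateCort, and 11.54, 12.22 and 12.65 in LowInj. The LowCort arrays were high and close together, and the LowInj arrays were spread from the lowest to nearly the highest value of all. LowInj was below LowCort by a log2 difference of -0.28 (SE 0.10, 95% interval -0.48 to -0.07, unadjusted p = 0.00988, adjusted p = 0.465), with 3 of 10 LowInj arrays above the LowCort mean. The 2 lowest LowInj arrays stood at 11.54 and 11.85, and a fit without both was not run. All 10 LowCort arrays exceeded the Sham mean, for a log2 difference of 0.16 (SE 0.10, adjusted p = 0.509), and 0 of 9 IntermediateCort arrays exceeded the LowCort mean (-0.15, SE 0.10, adjusted p = 0.618). The Sham mean was pulled down by a single array at 11.67. Without that array and 2 others that stood apart in a member, the difference of LowCort from Sham was 0.09 (adjusted p = 0.726).

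**Figure D2:**
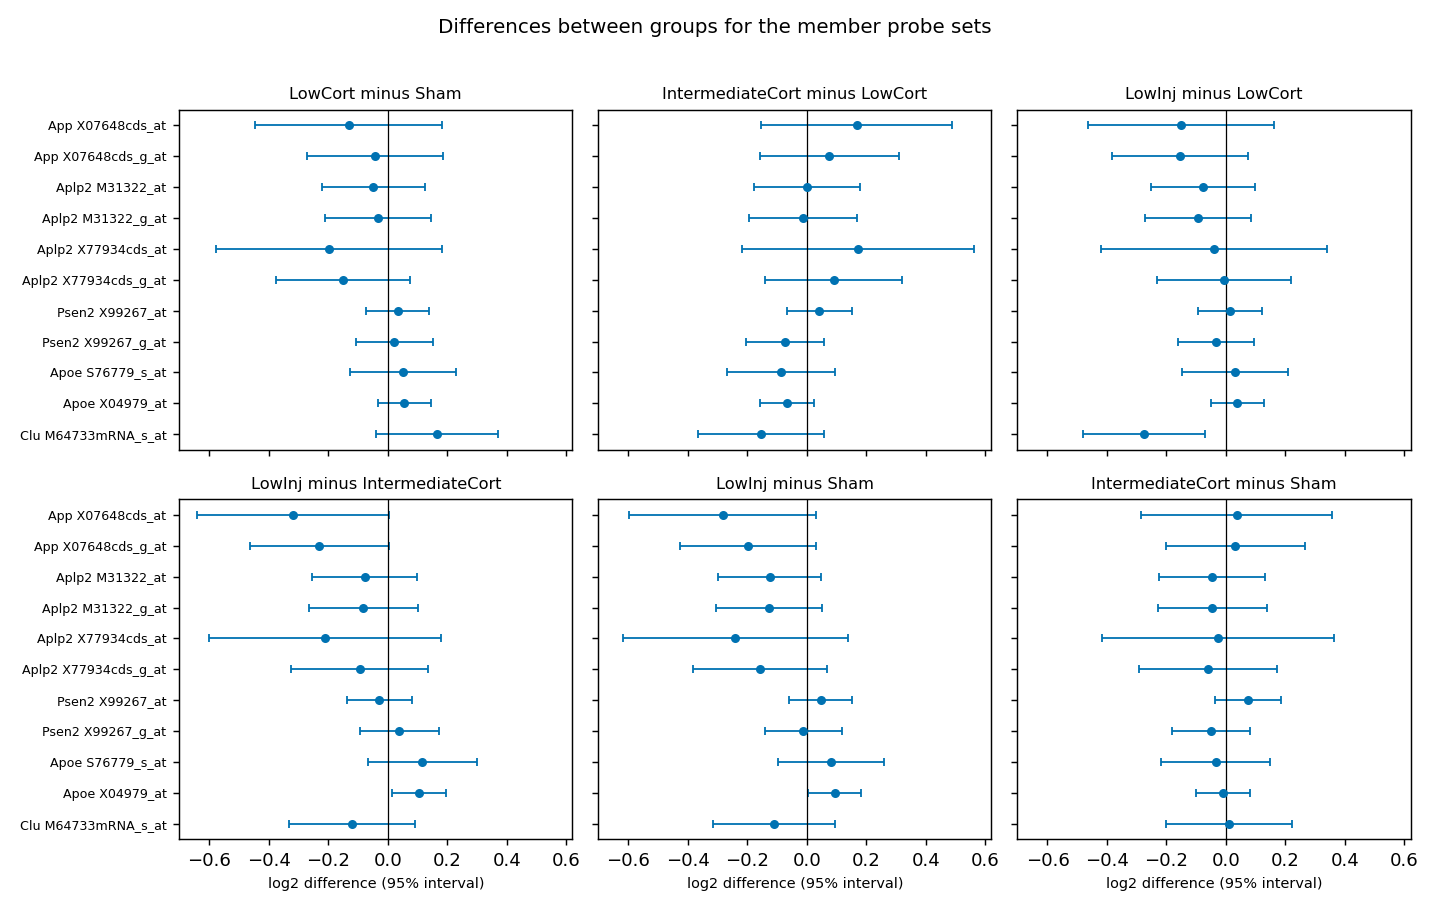
Log2 differences between groups (first minus second) for the 11 member probe sets in the 6 comparisons, as points with 95% intervals from limma; the vertical line marks 0. The points lie between -0.32 and 0.17, the interval excludes 0 for Clu in LowInj minus LowCort and for Apoe X04979_at in LowInj minus IntermediateCort and minus Sham, and the LowInj comparisons show App and Aplp2 to the left of 0.

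The members differed in how far they moved with signs of RNA or cRNA quality. On these arrays, control probe sets read the 3' and the 5' end of Gapdh and of beta-actin, and a larger 3' minus 5' difference marks shorter or less complete transcripts. The Gapdh difference averaged 0.70 for Sham, 0.81 for LowCort, 0.63 for IntermediateCort and 1.03 for LowInj, where 1 array reached 2.41. That array had the lowest beta-actin difference of all (0.043), so the 2 differences did not always rise together. The mean beta-actin difference was 0.68, 0.93, 0.65 and 0.79 in the same order. In every group it peaked in the last or next to last subject number, at 1.52, 1.68, 1.45 and 2.13 in that order. The first subject of each group had 0.38, 1.04, 0.41 and 0.25. Whether the order of subjects reflects a batch was not tested. Both differences together took up 84.9% of the variance within groups of Apoe S76779_s_at, 71.1% of that of Aplp2 M31322_at, 53.1% of that of App X07648cds_at and 52.6% of that of Apoe X04979_at. The share was 27.5% for Clu and 11.4% and 6.91% for the Psen2 probe sets. Over all tested probe sets the median was 19.6% and the 90th percentile 52.8%. Apoe S76779_s_at and Aplp2 thus lay in the upper part of the array in this respect, and Psen2 below its middle. App X07648cds_at and Apoe X04979_at lay near the 90th percentile. The second App probe set, X07648cds_g_at, had 31%, below the upper quartile of 36.9%.

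The 2 Apoe probe sets behaved differently here. Apoe S76779_s_at fell as the beta-actin difference grew (r = -0.810 and rho = -0.749 over 39 arrays, each with a permutation p of 1e-05, adjusted to 8.18e-05 and 7.50e-05 among 90 relations). The value of r was -0.771 without the 2 arrays farthest from the median beta-actin difference. Sham arrays alone gave -0.869, LowCort arrays -0.927, IntermediateCort arrays -0.837 and LowInj arrays -0.937. For Apoe X04979_at r was -0.369 (rho = -0.257, with permutation p-values of 0.0211 and 0.114 that adjust to 0.0512 and 0.211), and within LowCort it was 0.107. It was -0.342 without the 2 farthest arrays, and -0.632 in Sham, -0.126 in IntermediateCort and -0.681 in LowInj. The 2 highest LowInj arrays of X04979_at, at 14.27 and 14.32, had Gapdh differences of 1.04 and 2.41. Their beta-actin differences were 0.17 and 0.04.

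App X07648cds_at went down with the Gapdh difference (r = -0.733 and rho = -0.885, each with a permutation p of 1e-05, adjusted to 8.18e-05 and 7.50e-05). Leaving out the 2 farthest arrays gave r = -0.809. Sham arrays alone gave -0.887, LowCort arrays -0.822, IntermediateCort arrays -0.753 and LowInj arrays -0.692. Aplp2 X77934cds_at did the same (r = -0.735 and rho = -0.757, with the same permutation p-values as App). Leaving out the 2 farthest arrays gave r = -0.715, and the groups in that order gave -0.670, -0.814, -0.777 and -0.768. For Aplp2 M31322_at r was -0.512 (permutation p = 0.0138, adjusted p = 0.0377), but rho was -0.006 (permutation p = 0.968) and r was 0.033 without the 2 farthest arrays, so the relation rested on those arrays. By group, r was -0.043 for Sham, 0.186 for LowCort, 0.593 for IntermediateCort and -0.792 for LowInj.

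**Figure D3:**
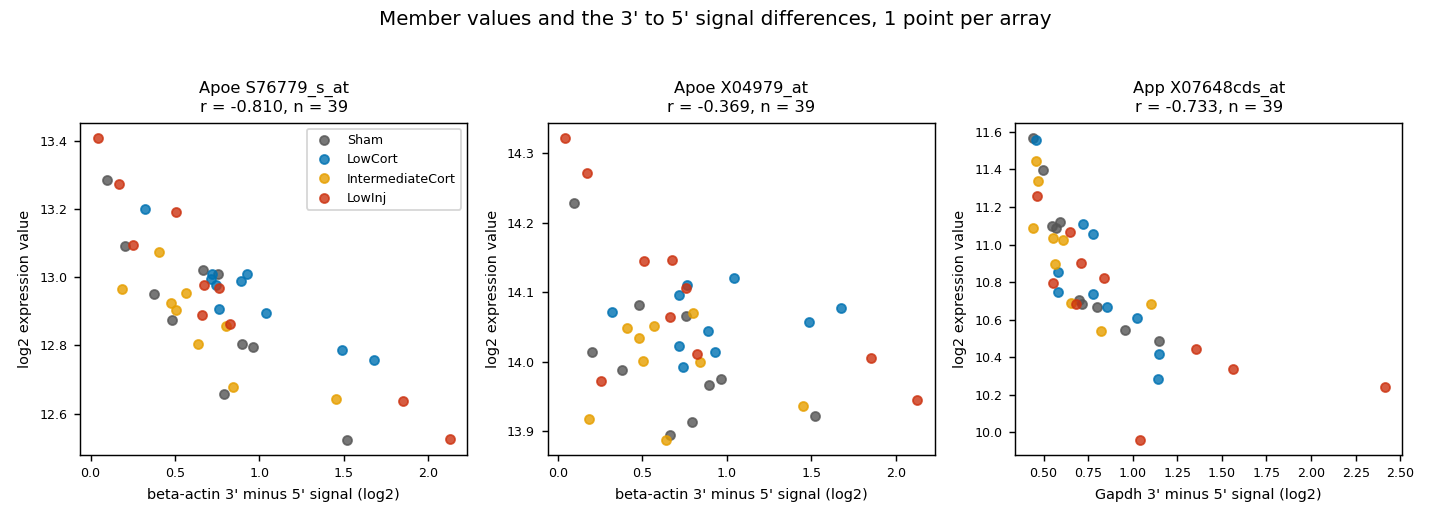
Log2 values of Apoe S76779_s_at and Apoe X04979_at against the beta-actin 3' minus 5' difference, and of App X07648cds_at against the Gapdh difference, with 1 point per array coloured by group. Apoe S76779_s_at (r = -0.810) and App (r = -0.733) fall along the axis in every group, while Apoe X04979_at is looser (r = -0.369).

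With both differences as covariates, LowInj was less far below IntermediateCort in App. The Aplp2 differences of that comparison changed sign without a call, and 1 Apoe probe set was called elsewhere. The App X07648cds_at difference of LowInj from IntermediateCort went from -0.32 to -0.05 (SE 0.12, adjusted p = 0.983), and that of Aplp2 X77934cds_at from -0.21 to 0.12 (SE 0.13, adjusted p = 0.949). Clu in LowInj against LowCort went from -0.28 to -0.18 (SE 0.09, adjusted p = 0.742). Apoe X04979_at in LowInj against IntermediateCort went from 0.10 to 0.07 (SE 0.04, adjusted p = 0.741). Apoe S76779_s_at was lower in IntermediateCort than in LowCort by a log2 difference of -0.18 (SE 0.04, 95% interval -0.26 to -0.09, adjusted p = 0.0146), a 1.13-fold difference. Without covariates it was -0.09 (SE 0.09, adjusted p = 0.790). In this model 1 of 11 members was called in IntermediateCort against LowCort, where 2.96% of all tested probe sets were called. The F test called 1 of 11, again Apoe S76779_s_at (adjusted p = 0.0364), against 3.01% of all.

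In LowCort against Sham, Apoe S76779_s_at was 0.14 higher with the covariates (SE 0.04, adjusted p = 0.0559), with 0 of 11 members called and 2.86% of all. Without the LowInj array of the largest Gapdh difference the covariate model gave 0.14 (adjusted p = 0.0391) for LowCort against Sham and -0.17 (adjusted p = 0.0115) for IntermediateCort against LowCort. The remaining comparisons with covariates called 0 of 11 members, against 0.441% of all in LowInj against LowCort, 0.311% in LowInj against IntermediateCort, 0.36% in LowInj against Sham and 0.196% in IntermediateCort against Sham. Apoe X04979_at, with covariates, moved the same way without a call: 0.07 in LowCort against Sham (SE 0.04, adjusted p = 0.356) and -0.08 in IntermediateCort against LowCort (SE 0.04, adjusted p = 0.352). The Apoe call therefore rests on the covariates and on 1 of the 2 probe sets. The groups were not balanced on these differences, and the part of RNA quality in the Apoe values beyond this model was not tested.

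**Figure D4:**
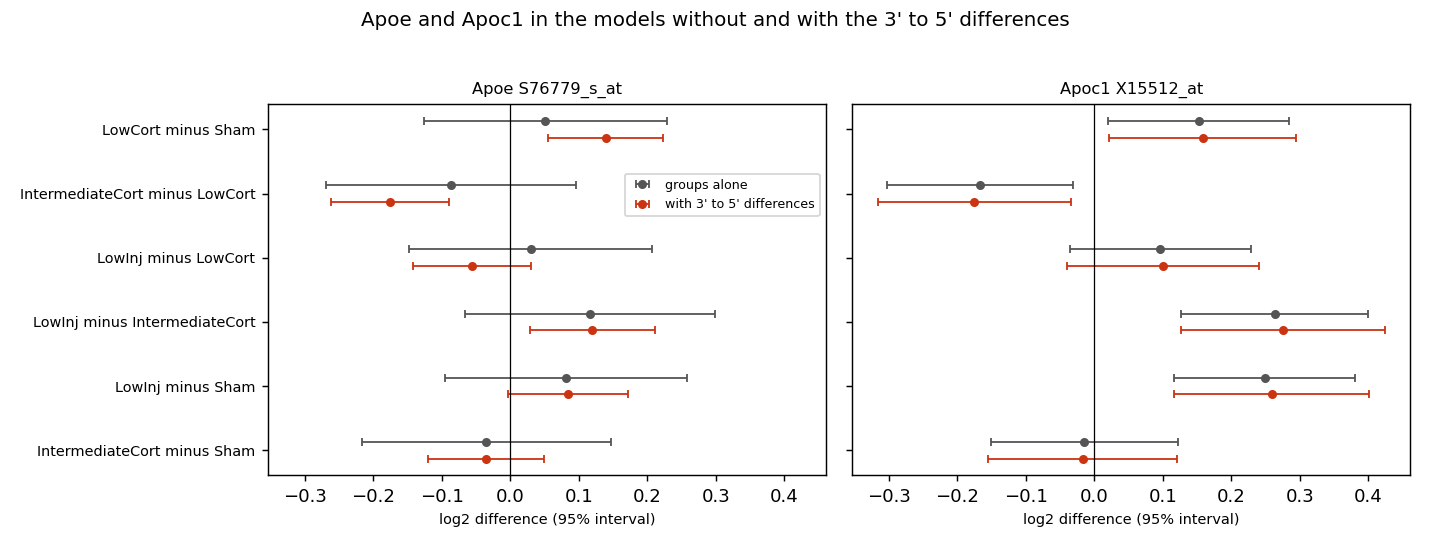
Log2 differences with 95% intervals for Apoe S76779_s_at and Apoc1 X15512_at in the 6 comparisons, from the model of groups alone (grey) and the model with the Gapdh and beta-actin 3' to 5' differences (red). The Apoe intervals narrow with the covariates and IntermediateCort minus LowCort moves from -0.09 to -0.18, while the Apoc1 values hardly move.

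Astrocytes and microglia are the main cells that hold Apoe transcripts in brain, and some of their markers changed in the same comparisons. Markers of other cell types did so too. In LowCort against Sham 3 of 5 CA1 pyramidal neuron genes were called (1.68% of all tested probe sets). In IntermediateCort against LowCort 3 of 9 endothelial and pericyte and 3 of 10 oligodendrocyte and myelin genes were called (2.14% of all). Of 12 neuron markers, 0 were called in either comparison. Of 13 tested astrocyte markers, each counted by its brightest probe set, 1 rose in LowCort against Sham and 1 fell in IntermediateCort against LowCort. This was Vim, an intermediate filament (log2 differences 0.60, SE 0.13, adjusted p = 0.0049, and -0.48, SE 0.13, adjusted p = 0.036). Most of the list had the opposite sign to Vim, with 4 of 13 genes positive in LowCort against Sham (median -0.05) and 9 of 13 in IntermediateCort against LowCort (median 0.03). Fabp7, a fatty acid binding protein, rose in LowInj against IntermediateCort (0.83, SE 0.16, adjusted p = 0.0117) and against Sham (0.68, SE 0.16, adjusted p = 0.0436). In these comparisons 5 of 13 genes (median -0.04) and 2 of 13 genes (median -0.06) of the list were positive. The mean over the astrocyte list ranged from 9.65 to 9.98 over the Sham arrays, 9.53 to 9.99 in LowCort, 9.68 to 9.89 in IntermediateCort and 9.57 to 10.12 in LowInj.

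Of 12 tested markers of microglia and macrophages, 1 rose in LowCort against Sham and 2 fell in IntermediateCort against LowCort, among them Fcgr2b, an inhibitory Fc receptor (0.54, SE 0.10, adjusted p = 0.000951, and -0.60, SE 0.10, adjusted p = 0.000412). In LowInj against LowCort 2 of the 12 fell, Fcgr2b (-0.43, SE 0.10, adjusted p = 0.037) and C3, a complement component (-0.52, SE 0.11, adjusted p = 0.0237). Positive signs were held by 7 of 12 genes in the first of these comparisons (median 0.05), 4 of 12 in the second (-0.11) and 5 of 12 in the third (-0.01). The mean over this list ranged from 8.00 to 8.17 in Sham, 8.00 to 8.37 in LowCort, 7.98 to 8.22 in IntermediateCort and 7.96 to 8.34 in LowInj. Their part in the Apoe and Clu values was not tested. In the F test, 2 of 13 astrocyte markers were called, 3 of 12 of microglia and macrophages, 1 of 12 of neurons, 2 of 5 of CA1 pyramidal neurons and 1 of 7 of dentate gyrus and CA3 neurons. The counts were 2 of 10 for oligodendrocytes and myelin, 1 of 9 for endothelial cells and pericytes, 1 of 6 for choroid plexus and ependyma and 4 of 9 for glucocorticoid-induced targets.

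Genes of the wider pathway were called about as rarely as the array as a whole. A list of 59 other genes held secretase subunits, amyloid-degrading enzymes, lipoprotein receptors, binding partners of the precursor and tau-related genes, of which 39 were in the table under 1 symbol and 36 were tested. In each of the 6 comparisons 0 of 36 genes were called, and between 1 and 5 passed an unadjusted p under 0.05. The median over the list was -0.01 in LowCort against Sham and 0.01 in IntermediateCort against LowCort, as over all tested probe sets. In the F test 1 of 36 was called, Apoc1 X15512_at (adjusted p = 0.0312), and 3 passed unadjusted. Over all tested probe sets the F test called 2.27%, and 11.8% passed unadjusted, so these counts do not set the list apart.

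Apoc1 encodes apolipoprotein C-I, a small apolipoprotein, and is a neighbour of Apoe in the rat genome, with 0 protein-coding genes between them in RefSeq's annotation of GRCr8. Its lowest, median and highest log2 values were 9.30, 9.46 and 9.67 in Sham, 9.31, 9.64 and 9.82 in LowCort, 9.28, 9.45 and 9.62 in IntermediateCort, and 9.45, 9.69 and 10.05 in LowInj. The arrays of the 25 mg pellet groups were mostly above those of the other groups, with overlap. LowInj was above IntermediateCort by 0.26 (SE 0.07, 95% interval 0.13 to 0.40, adjusted p = 0.0948) and above Sham by 0.25 (SE 0.07, adjusted p = 0.121), with 9 of 10 LowInj arrays above either mean. LowCort was above Sham by 0.15 (SE 0.07, adjusted p = 0.279), with 9 of 10 LowCort arrays above the Sham mean. IntermediateCort was below LowCort by a log2 difference of -0.17 (SE 0.07, adjusted p = 0.265), with 0 of 9 arrays above the LowCort mean. No single comparison was called, and these comparisons share arrays. Among 12 alternatives, LowInj against IntermediateCort was called in 3, with array weights (0.27, adjusted p = 0.0100), with quantile normalization (0.28, adjusted p = 0.0284) and with the covariates and 1 array fewer (0.30, adjusted p = 0.0312). LowInj against Sham was called in 1, quantile normalization (0.25, adjusted p = 0.0383).

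The F test call of Apoc1 was lost without the LowInj array of the largest Gapdh difference (adjusted p = 0.0557). It was also lost without the 3 arrays of the largest Gapdh differences (0.0883) and without the 3 arrays that stood apart in a member (0.0702). It stayed in the other 8 of 11 alternatives, which ranged down to 0.00561. Its relation to the Gapdh difference was weak (r = 0.183 and rho = 0.157, with permutation p-values of 0.264 and 0.337 that adjust to 0.371 and 0.466). Leaving out the 2 farthest arrays gave r = -0.010, and by group r was -0.338 for Sham, -0.332 for LowCort, 0.204 for IntermediateCort and 0.001 for LowInj. The order of the Apoc1 means was that of both Apoe probe sets, LowInj, LowCort, Sham and IntermediateCort. Across arrays, however, Apoc1 was not clearly related to Apoe X04979_at (r = 0.290, rho = 0.263, permutation p = 0.0731) or S76779_s_at (r = 0.298, rho = 0.232, permutation p = 0.0662).

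**Figure D5:**
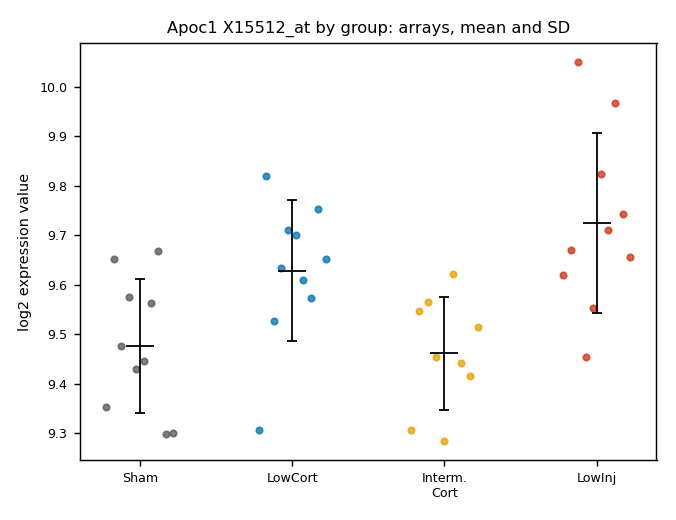
Deposited log2 values of Apoc1 X15512_at in the 4 groups, with 1 point per array and the group mean and SD in black. LowInj (mean 9.72) and LowCort (9.63) stand above Sham (9.48) and IntermediateCort (9.46), with overlapping arrays.

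Other genes of the list with small F test p-values did not pass. Serpina3n, a serine protease inhibitor of the acute phase, was lowest in LowCort, with a median of 6.83 against 6.97 in Sham (log2 difference -0.16, SE 0.05, adjusted p = 0.0809). A2m, the broad protease inhibitor alpha-2-macroglobulin, had the same direction (-0.12, SE 0.04, adjusted p = 0.133). Lpl, the lipoprotein lipase, had a median of 7.00 in IntermediateCort and 7.35 in LowCort (L03294_at, -0.35, SE 0.11, adjusted p = 0.0827). Aph1a, a further subunit of gamma-secretase, was 0.22 above IntermediateCort in LowInj (rc_AA800566_g_at, SE 0.08, adjusted p = 0.249). Cdk5r1, the activator of the tau kinase Cdk5, was 0.14 below Sham in LowCort (-0.14, SE 0.06, adjusted p = 0.229). Ctsd, the lysosomal protease cathepsin D, had an F test adjusted p of 0.564.

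The genes most like each member were found after group means and both 3' to 5' differences were removed, over the 39 arrays, as a description. Clu was most like Prdx6, a peroxiredoxin (r = 0.906), Gng7, a G protein subunit (0.865), and Gstm1, a glutathione transferase (0.841). App X07648cds_at was most like Cntn1, a neuronal adhesion molecule (0.897), Srpk2 (0.892) and Scd2, a fatty acid desaturase (0.879), and its second probe set most like Vsnl1, Pak3 and Ythdc1. For Apoe S76779_s_at the closest genes were Ntsr2, a neurotensin receptor (0.712), Hspb6 and Gng8, and for X04979_at Acvr2b (0.686), Mmp14 and Rpp21. The Apoe values were thus lower than those of Clu and App, and the 2 Apoe probe sets shared none of their 3 closest genes.

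The Aplp2 pairs had different neighbours as well. M31322_at was most like Ina, an intermediate filament of neurons (0.759), and M31322_g_at most like Slc25a23 (0.790), with Ina next (0.764). Before the removal, r with Ina was only 0.12 for M31322_at and 0.18 for M31322_g_at. X77934cds_at and X77934cds_g_at had Nup62, a nuclear pore protein, as their closest gene (0.800 and 0.848). The closest genes of the Psen2 probe sets were Ccnd3 (0.786) and Hadha (0.827).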

How the data were processed

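The deposited series table holds log2 values of 8799 probe sets on 39 arrays of CA1 RNA. The base was read from the values. The submitters' processing notes name MAS5, RMA and R 2.7.1 but do not say which of them gave these numbers. No further normalization was applied. Probe sets were named by the platform table, those with 1 symbol only. Probe sets at or above the 30th percentile of mean value (6118) entered a linear model (limma 3.58.1, R 4.3.3) that had a mean for each group and 35 residual degrees of freedom, for 6 comparisons and an F test. All adjusted p-values of differences are Benjamini-Hochberg values over 6118 probe sets, two-sided, called under 0.05. The arrays' number limits the precision. A second model added the Gapdh and beta-actin 3' to 5' differences. Correlations used 100000 permutations, two-sided, and were adjusted over 90 relations. The labels give no batch or scan date. The scripts were tested on simulated data.

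All probe sets of the 6 genes are named, with pathway genes called or among the 6 next smallest F test p-values, called marker genes as fit each paragraph, and the 3 genes most alike. Members and lists were chosen with earlier results of these data known. Alternatives changed the filter, covariates, array weights, variance prior, normalization, groups in the fit and arrays.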

Additional observations from a re-analysis of the deposited data

Results flagged for a closer look

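In 48 groups of arrays (the 11 members and Apoc1, 4 groups each), 3 arrays lay far from the others of their group by Dixon's test, which chance gives in about 1 of 20 groups. Aplp2 M31322_at had a LowInj array at 10.09, with the next at 10.64. This array had the largest Gapdh 3' to 5' difference (2.41) and the lowest beta-actin difference (0.043) of all arrays. Aplp2 M31322_g_at had an IntermediateCort array at 10.35, with the next at 10.10, a Gapdh difference of 1.10 and a beta-actin difference of 1.45. Clu had a Sham array at 11.67, with the next at 12.22, a Gapdh difference of 0.959 and a beta-actin difference of 0.098.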

How the results depend on the processing

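Over 12 alternatives, 780 member differences were recomputed. Of these, 83 changed sign, none of them called in either fit, 3 were newly called, all of Apoe S76779_s_at with the 3' to 5' covariates, and 1 moved by more than 1 SD. Of 119 member F tests, 2 were newly called. The alternatives with covariates and 1 array fewer, with the 3 largest Gapdh differences left out, and with subjects 6, 19 and 35 left out were chosen after seeing the data.

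Counts over all probe sets (103 in LowCort against Sham, 131 in IntermediateCort against LowCort, 21 in LowInj against LowCort, 12 against IntermediateCort, 14 against Sham, 1 in IntermediateCort against Sham, 139 in the F test) moved more. In that order, array weights gave 170, 338, 50, 105, 33, 2 and 307. The rank of the subject number gave 185, 36, 21, 30, 2 and 224, the second count moving less. With covariates they were 175 in the first, then 19, 22 and 12 in the last 3 comparisons, with 1 member called in IntermediateCort against LowCort and 1 in the F test. With covariates and 1 array fewer they were 231, 251, 37, 64, 28, 10 and 260, with 1 member called in each of the first 2 comparisons and in the F test. With a filter at the 50th percentile 6 and 5 remained in LowInj against IntermediateCort and Sham. With only the compared groups in the fit these were 0 and 1, and IntermediateCort against Sham 4. Without the 3 largest Gapdh differences LowInj against LowCort had 12, and without subjects 6, 19 and 35 IntermediateCort against Sham had 2. The causes were not tested. Fewer probe sets were tested under the stricter filter, and Psen2 dropped out. Fits of compared groups alone have no F test.

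No paired analysis was possible because each subject number belongs to 1 animal and the groups share none. Signal over background is not in the deposited values, and the precision is limited by 9 or 10 arrays per group.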
